A study of Mus musculus with 13 samples.

Results

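The miR-15/16 family is a group of microRNAs (miRNAs) that share the seed AGCAGCA, the bases 2 to 8 of a mature miRNA that pair with its target mRNAs. The members were taken by name from the 2 count tables of the series, as the mouse hairpins mmu-mir-15a, mmu-mir-15b, mmu-mir-16-1, mmu-mir-16-2, mmu-mir-195a and mmu-mir-497a (here without the prefix) and as every mature sequence, major or minor arm, of miR-15a, miR-15b, miR-16, miR-195a and miR-497a. They were 6 of 1127 hairpins and 10 of 1297 mature sequences, 16 of 2424 rows in all. The study asked how the loss of TET2 and TET3, dioxygenases that oxidize 5-methylcytosine in DNA, affects small RNAs of iNKT cells from the thymus, lipid-reactive T cells whose TCR α chain is invariant. Small RNA-seq covered 6 WT and 7 *Tet2/3* DKO animals, and each gave 1 library.

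The WT mice were C57BL/6 controls, bred in the same facility. The *Tet2/3* DKO mice were Tet2-/- Tet3flx/flx CD4 cre, so that *Tet2* was missing from the whole animal and *Tet3* was deleted only in cells that had expressed CD4 cre, in T cell development. Mice of both genotypes were 21 to 25 days old and of both sexes. Live TCRβ+ tetramer+ cells were sorted after depletion of CD24+ thymocytes, and in such bulk RNA fewer cells of one kind and less of a miRNA per cell cannot be told apart. Libraries of the *Tet2/3* DKO were deeper, with 1837631 to 4361963 mature counts against 1110852 to 2582057 in WT and with 728653 to 1910526 hairpin counts against 469117 to 1110226. The defining miRNAs of T lymphocytes and blood cells (mir-142a, mir-150, mir-181a-1, mir-181a-2 and mir-155) were all tested, 2 of the 5 lower and 3 higher in *Tet2/3* DKO, and their summed level overlapped between the genotypes, at 176248 to 207755 CPM (counts scaled to the TMM-adjusted library size) in WT and 165303 to 225614 CPM in *Tet2/3* DKO. mir-181a-1 and mir-181a-2 had nearly the same counts (155668 and 153149 in WT, 796775 and 787803 in *Tet2/3* DKO). They are not separate measurements, and the sum holds both. Of their 8 mature arms, as a list, 3 were lower, 2 were higher and 3 did not pass. Over all tested, 27.1% of hairpins were lower and 32.6% higher, and 27.4% and 28.2% of mature sequences.

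A miRNA gene is transcribed as a long primary RNA, from which DROSHA cuts the hairpin precursor in the nucleus and DICER then cuts a duplex of a 5p and a 3p arm, one of which is usually kept in the silencing complex and the other lost. The miR-15/16 family is known as a brake on the cell cycle, because its targets include D-type and E-type cyclins, CDK6 and the survival factor BCL2. The *Dleu2* locus that encodes miR-15a and miR-16-1 is recurrently deleted in chronic lymphocytic leukaemia.

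The family lies at 3 loci with 1 pair of hairpins each, given here from the GENCODE annotation of GRCm38. Mir15a (chr14:61632027-61632110, minus strand) and Mir16-1 (chr14:61631880-61631972, minus strand) are 54 bases apart within the non-coding gene *Dleu2*, where Mir16-1 overlaps an exon in 1 of 8 transcripts that span it and Mir15a in 0 of 8, so both are otherwise intronic. Mir15b (chr3:69009772-69009835, plus strand) and Mir16-2 (chr3:69009902-69009996, plus strand) are 66 bases apart in introns of *Smc4*, which encodes a condensin subunit, in all 5 transcripts that span them. Mir497 (chr11:70234717-70234800, plus strand) and Mir195a (chr11:70235042-70235135, plus strand) are 241 bases apart, with no annotated host gene on their strand.

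The mature 5p sequences show what the 3 loci share, and they are printed from RefSeq (GRCm38.p6) with the seed in capitals, each from its 5′ end.
miR-16-5p: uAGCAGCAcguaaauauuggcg
miR-15a-5p: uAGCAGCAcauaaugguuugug
miR-15b-5p: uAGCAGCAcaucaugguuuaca
miR-195a-5p: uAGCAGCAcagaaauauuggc
miR-497a-5p: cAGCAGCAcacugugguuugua
The first 9 bases of miR-15a-5p, miR-15b-5p and miR-195a-5p are those of miR-16-5p. Position by position, miR-195a-5p has the same base as miR-16-5p at 19 of 21 positions, miR-15a-5p at 16 of 22, miR-15b-5p at 14 of 22 and miR-497a-5p, which starts with another base, at 11 of 22.

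The 3p arms, which are cut from the other side of the same hairpins, do not carry this seed. The pair that met the filter on low counts is shown because their levels relative to the 5p arms are compared between genotypes.
miR-15b-3p: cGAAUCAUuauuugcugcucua
miR-16-2-3p: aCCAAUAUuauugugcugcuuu
Their seeds, again in capitals, differ from each other and from the seed of the 5p arms. A search of the mature table found the seed AGCAGCA in 6 of the 1078 sequences that matched an entry of RefSeq, the 5 members above and miR-322-5p.

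Both miR-16 hairpins hold the same mature 5p arm, which is why their counts cannot be assigned to one locus. They are printed with miR-16-5p in capitals.
mir-16-1: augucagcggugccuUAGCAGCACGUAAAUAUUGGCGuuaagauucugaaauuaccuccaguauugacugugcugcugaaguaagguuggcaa
mir-16-2: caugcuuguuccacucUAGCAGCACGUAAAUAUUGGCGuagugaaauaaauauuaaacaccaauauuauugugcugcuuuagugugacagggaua
The longest stretch that these hairpins share is 23 bases, the 22 of miR-16-5p and 1 more. Outside it, the 3p side of each hairpin is particular in sequence, so that miR-16-1-3p and miR-16-2-3p can be told apart.

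miR-16-5p was the most abundant of all mature miRNAs, and the family as a whole held about the same share of the mature counts in both genotypes. The family took 19.5% ± 1.72 (SD, n = 6) of the mature counts in WT, and 19.4% ± 1.24 (SD, n = 7) of those in *Tet2/3* DKO, and miR-16-5p alone 15.7% ± 1.21 and 15.5% ± 1.15. These shares are of raw counts and are given without a test. Among the 5p arms, miR-16-5p made up 80.3% ± 1.76 in WT and 79.8% ± 2.10 in *Tet2/3* DKO, miR-15b-5p 18.0% ± 1.78 and 18.2% ± 1.99, and miR-15a-5p 1.64% ± 0.116 and 1.94% ± 0.313. The chromosome 11 locus added little, with miR-195a-5p at 0.00879% ± 0.00187 and 0.0110% ± 0.00377 and miR-497a-5p at 0.0108% ± 0.00382 and 0.0167% ± 0.00431. Mature sequences of the family are 21 or 22 bases long, so their CPM were ranked without a correction for length. How evenly different sequences were recovered in the libraries was not tested, so the shares and ranks are of counts. The order by mean CPM over all libraries was miR-16-5p (rank 1 of all mature sequences), miR-15b-5p (rank 8), miR-15a-5p (rank 39), miR-15b-3p (rank 185), miR-497a-5p (rank 241), miR-195a-5p (rank 265) and miR-16-2-3p (rank 317). The levels of miR-497a-5p and miR-195a-5p overlapped in both genotypes, and those of miR-195a-5p and miR-16-2-3p overlapped in *Tet2/3* DKO.

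**Figure D1:**
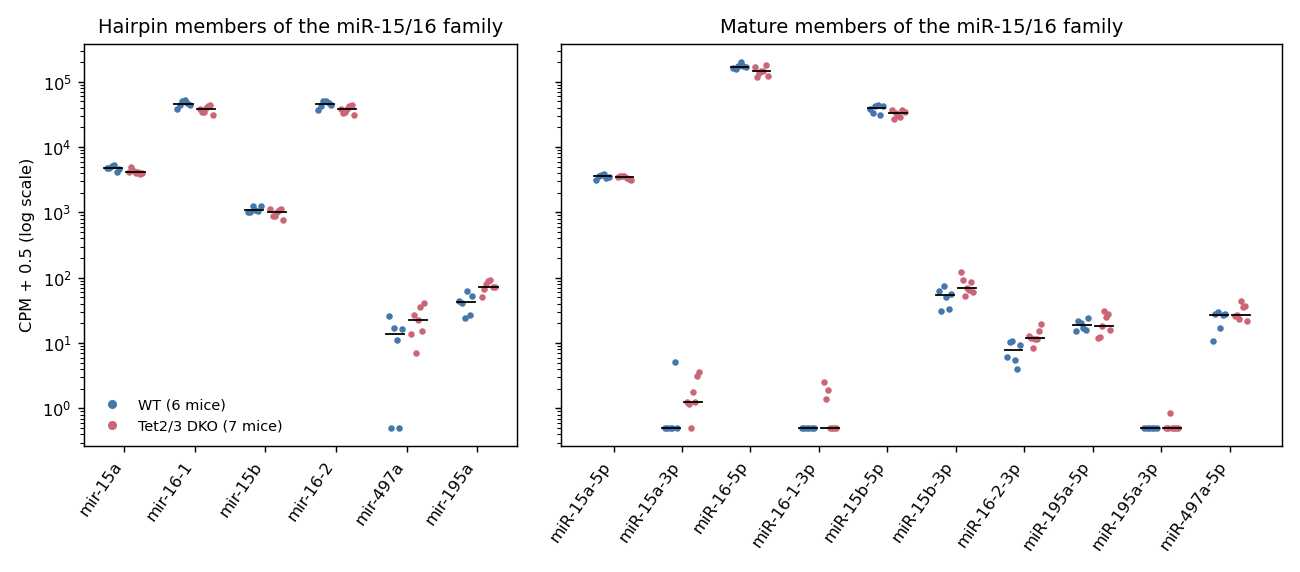
Level of each member in each mouse as CPM + 0.5 on a log axis, for hairpins at left and mature sequences at right, with WT mice in blue, *Tet2/3* DKO mice in red and a line at each median. miR-16-5p, with medians of 169547 and 146043 CPM, stands far above miR-195a-5p, with medians of 18.3 and 17.8 CPM, and points at the bottom are libraries with 0 counts.

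Before the members are compared between genotypes, the scaling has to be stated, because it decides several of their directions. CPM and fold changes here use TMM factors, which assume that most miRNAs do not differ between libraries. Against them, library size alone moved the fold changes of tested miRNAs by a median of 0.34 (log2, hairpins) and 0.24 (mature), upper-quartile factors by -0.24 and -0.17, and RLE size factors by -0.10 and 0.01. Changes of the abundant members are of this size, so they are given relative to the TMM scale.

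All 6 hairpins and 7 of the 10 mature sequences passed the filter on low counts. Of the hairpins, mir-16-1 and mir-16-2 were lower and mir-195a was higher in *Tet2/3* DKO, and 3 did not pass (edgeR's quasi-likelihood test, adjusted p under 0.05). Over all 350 hairpins tested, 59.7% passed, 27.1% as lower and 32.6% as higher. Of the mature members, miR-15b-3p and miR-16-2-3p were higher and 5 did not pass, where 55.6% of 401 mature sequences passed, 27.4% as lower and 28.2% as higher. No mature member passed as lower with edgeR, although miR-16-5p and miR-15b-5p did at an unadjusted p under 0.05, and the adjusted count was 2 with limma-voom and 0 with DESeq2. None of the 6 hairpins and none of the 7 mature members also had an absolute log2 fold change above 2, a size that 8.29% of hairpins and 11.2% of mature sequences reached. No tested member separated the genotypes without overlap, whereas 32.0% of hairpins and 27.2% of mature sequences did. The median log2 fold change of the members was -0.19 for hairpins and 0.09 for mature sequences, beside 0.02 and -0.01 over all tested.

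The abundant 5p arms of the chromosome 14 and chromosome 3 loci were at or slightly under their WT level. miR-16-5p, the sum of both miR-16 loci, was at 158645, 169547 and 198188 CPM (lowest, median and highest) in WT and at 118111, 146043 and 178801 CPM in *Tet2/3* DKO. In 5 of the 7 *Tet2/3* DKO mice it was under every WT mouse, but the genotypes overlapped. The log2 fold change was -0.25 (SE 0.109, 0.843-fold) and did not pass at the automatic TMM setting (edgeR's quasi-likelihood test, adjusted p = 0.0602). That setting takes 1 library as the reference, and with each of the 13 libraries as reference in turn miR-16-5p passed with 11 of them, with log2 fold changes between -0.35 and -0.24 and adjusted p between 0.00839 and 0.0688. It passed in all 13 fits that left out 1 mouse, none of which kept the reference of the full fit, but only without DKO replicate 1 or 6 (-0.28 and -0.30) in the 12 fits that kept it. With library size alone its log2 fold change was -0.02 (adjusted p = 0.871).

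miR-15b-5p, from the chromosome 3 locus, was at 31220, 40045 and 43820 CPM in WT and at 27307, 33233 and 37315 CPM in *Tet2/3* DKO. All 7 *Tet2/3* DKO mice were under the WT median and 3 under every WT mouse. Its log2 fold change was -0.24 (SE 0.111, edgeR adjusted p = 0.0760), and it passed with 10 of the 13 references (adjusted p 0.0102 to 0.0815). It passed in 11 of the 13 fits that left out 1 mouse and chose the reference anew (adjusted p 0.00820 to 0.0644), but with the reference held in only 1 of 12, without WT replicate 5 (-0.29). With library size alone its log2 fold change was -0.00095 (edgeR adjusted p = 0.996), and with upper-quartile factors -0.40 (edgeR adjusted p = 0.00404).

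miR-15a-5p, from *Dleu2* on chromosome 14, was at 3128, 3542 and 3800 CPM in WT and at 3158, 3501 and 3659 CPM in *Tet2/3* DKO. The ranges lay almost on top of each other, with 3 mice of the *Tet2/3* DKO above and 4 under the WT median. Its log2 fold change was -0.02 (SE 0.0923, edgeR adjusted p = 0.842) and 0.23 with library size alone (adjusted p = 0.0658).

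Both miR-16 hairpins were lower on the TMM scale. mir-16-1 was at 38259, 46243 and 51836 CPM in WT and at 31096, 38500 and 44750 CPM in *Tet2/3* DKO, with all 7 *Tet2/3* DKO mice under the WT median. Its log2 fold change was -0.28 (SE 0.104, 0.822-fold, edgeR adjusted p = 0.0261), and it passed with 8 of the 13 references. mir-16-2 was at 37407, 45069 and 50703 CPM in WT and at 30458, 37886 and 43835 CPM in *Tet2/3* DKO, again with all 7 under the WT median. Its log2 fold change was -0.28 (SE 0.104, edgeR adjusted p = 0.0295), and it passed with 7 of the 13 references. Because of the arm printed above, these are not separate measurements, since mir-16-2 had 2.19% to 2.72% fewer counts than mir-16-1 in WT and 1.55% to 2.09% fewer in *Tet2/3* DKO. Without WT replicate 3, 4 or 6 neither hairpin passed (mir-16-1 at -0.21, -0.20 and -0.25), and in these fits TMM also took another reference library. mir-16-2 also did not pass without WT replicate 5 or DKO replicate 3 (-0.26 and -0.27), where TMM took the same reference as the full fit. With the reference and the tested hairpins held, mir-16-1 did not pass without WT replicate 3, WT replicate 4 or DKO replicate 3 (-0.25, -0.25 and -0.26), and mir-16-2 did not pass in 5 of 12 such fits.

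The hairpins of miR-15a and miR-15b, which unlike those of miR-16 can each be assigned to 1 locus, did not pass with edgeR at the automatic TMM setting. mir-15a was at 4081, 4803 and 5301 CPM in WT and at 3824, 4141 and 4998 CPM in *Tet2/3* DKO, with 6 of 7 mice under the WT median (log2 fold change -0.19, SE 0.0925, edgeR adjusted p = 0.0875). mir-15b was at 1004, 1070 and 1269 CPM in WT and at 777, 1004 and 1137 CPM in *Tet2/3* DKO, with 4 of 7 mice under every WT mouse (log2 fold change -0.18, SE 0.111, edgeR adjusted p = 0.162). Both passed with RLE size factors (mir-15a -0.29, adjusted p = 0.0117, and mir-15b -0.28, adjusted p = 0.0280) and with upper-quartile factors (-0.43, adjusted p = 0.00101, and -0.42, adjusted p = 0.00746), all in edgeR. With limma-voom on TMM factors and with DESeq2, mir-15a passed as lower and mir-15b did not. With library size alone all 4 hairpins turned to positive values, mir-15a at 0.15, mir-15b at 0.15, mir-16-1 at 0.05 and mir-16-2 at 0.06, and none passed.

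The hairpin of the chromosome 11 locus moved the other way. mir-195a was at 23.5, 42.0 and 61.7 CPM in WT and at 50.5, 72.1 and 92.6 CPM in *Tet2/3* DKO, which is 19 to 58 and 61 to 189 counts per library. All 7 *Tet2/3* DKO mice were above the WT median and 6 were above every WT mouse. The log2 fold change was 0.86 (SE 0.237, 1.81-fold, edgeR adjusted p = 0.00397), and it passed with all 13 references and under every scaling tried, between 0.61 with upper-quartile factors and 1.203 with library size alone. miR-195 and miR-497 are also known from stroma and muscle. The miRNAs listed for these cells were mir-143, mir-145a, mir-199a-1, mir-199a-2, mir-199b, mir-214, mir-10b, mir-1a-1 and mir-133a-1. Of these 9, 4 were tested and all 4 were lower, where 27.1% of all hairpins and 27.4% of all mature sequences tested were lower. The 9 summed to 75.0 to 193 CPM in WT and 10.5 to 42.5 CPM in *Tet2/3* DKO. What these cells add to the level of mir-195a was not tested. Of the 4 tested, mir-199a-1, mir-199a-2 and mir-199b had nearly the same counts and log2 fold changes (-2.32, -2.29 and -2.31). They are not separate measurements, and the other was mir-214 (-3.28). Of the list's 12 mature arms, 6 were tested and all 6 were lower, with miR-199a-3p and miR-199b-3p at the same value. None of the 9 hairpins was at 0 in all libraries.

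Its mature product did not follow with a change of that size. miR-195a-5p was at 15.04, 18.3 and 23.5 CPM in WT and at 11.5, 17.8 and 30.6 CPM in *Tet2/3* DKO. The *Tet2/3* DKO mice were more spread, with 3 above and 2 under every WT mouse. Its log2 fold change was 0.09 (SE 0.281, edgeR adjusted p = 0.796) and turned to -0.09 with upper-quartile factors.

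mir-497a, the neighbour of mir-195a, had few counts. It was at 0, 13.2 and 25.3 CPM in WT, with 2 libraries at 0 counts, and at 6.47, 22.2 and 40.2 CPM in *Tet2/3* DKO (log2 fold change 1.02, SE 0.610, edgeR adjusted p = 0.159). Its counts are identical in every library to those of mir-497b, whose annotated hairpin of 125 bases on the opposite strand contains the 84 bases of mir-497a as reverse complement, so the strand of origin is uncertain. miR-497a-5p was at 10.3, 26.7 and 29.9 CPM in WT and at 21.1, 26.7 and 43.4 CPM in *Tet2/3* DKO, with overlapping genotypes (log2 fold change 0.39, SE 0.262, edgeR adjusted p = 0.219).

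**Figure D2:**
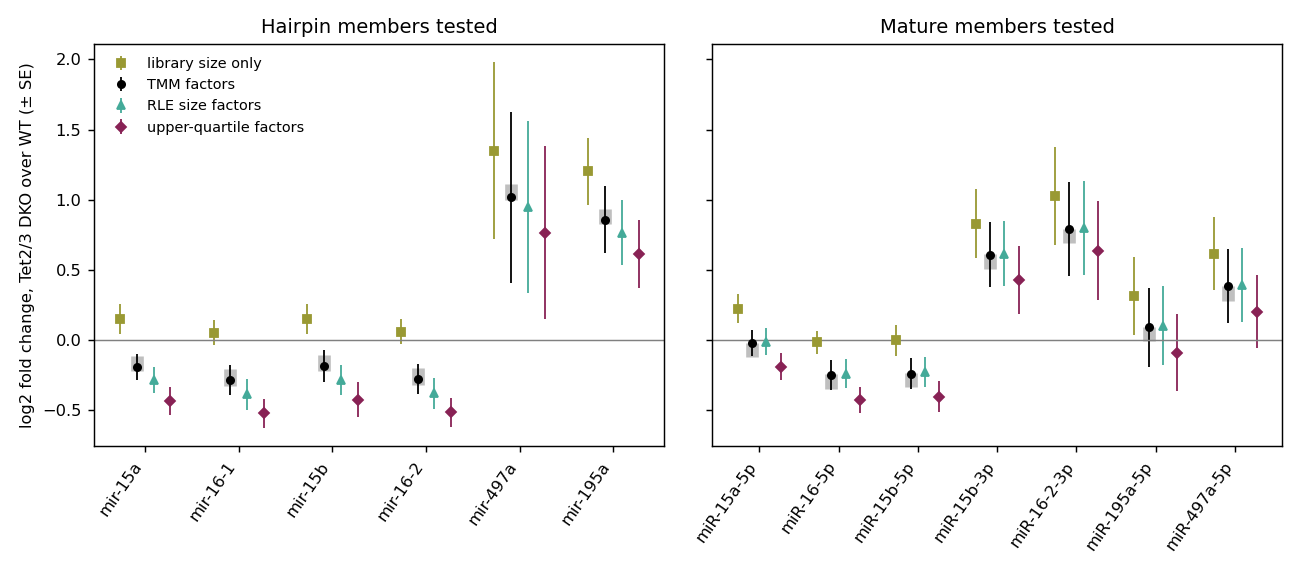
Log2 fold change of *Tet2/3* DKO over WT with its SE for each tested member under 4 scalings, where the grey bar spans the values with each of the 13 libraries as TMM reference. mir-195a lies above 0 under all 4 scalings, mir-15a, mir-15b, mir-16-1 and mir-16-2 change from negative to positive with library size alone, miR-15a-5p changes likewise, and miR-195a-5p is negative with upper-quartile factors and positive with 11 of the 13 references.

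The minor 3p arms of the chromosome 3 locus were higher in *Tet2/3* DKO. miR-15b-3p was at 30.7, 53.6 and 73.7 CPM in WT and at 51.6, 69.0 and 121 CPM in *Tet2/3* DKO, with 6 of 7 *Tet2/3* DKO mice above the WT median and 3 above every WT mouse. Its log2 fold change was 0.61 (SE 0.232, 1.52-fold, edgeR adjusted p = 0.0301), it passed with 8 of the 13 references, and with upper-quartile factors it was 0.43 and did not pass (adjusted p = 0.133). It passed in 4 of the 13 fits that left out 1 mouse and chose the reference anew (log2 fold change 0.42 to 0.67, adjusted p 0.0234 to 0.145) and in 8 of 12 with the reference held, where it did not pass without WT replicate 2, WT replicate 5, DKO replicate 1 or DKO replicate 2 (0.50, 0.51, 0.47 and 0.57). miR-16-2-3p was at 3.57, 7.27 and 10.2 CPM in WT and at 7.83, 11.6 and 18.8 CPM in *Tet2/3* DKO, on 6 to 25 and 22 to 61 counts per library. All 7 *Tet2/3* DKO mice were above the WT median and 6 above every WT mouse. The log2 fold change was 0.79 (SE 0.334, 1.73-fold, edgeR adjusted p = 0.0483), a call that held with only 1 of the 13 references (adjusted p 0.0483 to 0.0853) and was lost with DESeq2 (0.82, adjusted p = 0.0517), in 11 of the 13 fits that left out 1 mouse and in 9 of the 12 that kept the reference.

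The remaining minor arms were too rare to test. miR-16-1-3p, the only arm that marks the chromosome 14 copy of miR-16, had 0 of 11623024 mature counts in WT, which allows up to 0.258 CPM over the group, and 16 counts in *Tet2/3* DKO, in 3 of 7 mice (8, 4 and 4 counts). miR-15a-3p had 9 counts in WT, all in 1 library, and 33 counts in 6 of 7 *Tet2/3* DKO mice. miR-195a-3p had 0 counts in WT and 1 in *Tet2/3* DKO. The *Tet2/3* DKO libraries were deeper, and whether these arms differed between the genotypes was not tested. miR-497a-3p was not among the mature sequences counted.

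Ratios of members within one library need no scaling factor, and 24 were listed, of which 19 had both sides above the filter. The log2 ratio of counts, with 0.5 added to each, was compared by an exact two-sided permutation test over all splits of the 13 mice into 6 and 7, with Benjamini-Hochberg adjustment over the 19, and 7 ratios passed at an adjusted p under 0.05.

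The 3p arms of the chromosome 3 locus rose relative to their 5p arms. miR-15b-3p was at 0.0923%, 0.123% and 0.175% of miR-15b-5p in WT and at 0.155%, 0.227% and 0.333% in *Tet2/3* DKO, with 5 of 7 *Tet2/3* DKO mice above every WT mouse. The log2 difference was 0.85 (SE 0.211, 1.81-fold, exact permutation p = 0.00466, adjusted p = 0.0127). miR-16-2-3p was at 0.00208%, 0.00443% and 0.00630% of miR-16-5p in WT and at 0.00582%, 0.00765% and 0.0156% in *Tet2/3* DKO, with 6 of 7 above every WT mouse. Its log2 difference was 1.06 (SE 0.316, 2.09-fold, exact permutation p = 0.00233, adjusted p = 0.00923). The denominator of the latter holds miR-16-5p of both loci. All 3p arms together made up 0.0275% ± 0.00746 (SD, n = 6) of the family's mature counts in WT, and 0.0512% ± 0.0124 (SD, n = 7) of them in *Tet2/3* DKO.

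Hairpin counts set against mature counts of the same gene differed between the loci. The counts on the mir-195a hairpin were 46.9%, 87.9% and 157% of those on miR-195a-5p in WT and 127%, 179% and 227% in *Tet2/3* DKO. Of the *Tet2/3* DKO mice, 5 of 7 were above every WT mouse, and the log2 difference was 0.93 (SE 0.268, exact permutation p = 0.00291, adjusted p = 0.00923). Against the mir-16-1 hairpin, mir-195a was at 0.0460% to 0.119% in WT and 0.131% to 0.232% in *Tet2/3* DKO without overlap (log2 difference 1.18, SE 0.270, exact permutation p = 0.00117, adjusted p = 0.00738).

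For mir-15a, hairpin counts were 57.7% ± 3.44 (SD, n = 6) of miR-15a-5p in WT, and 52.8% ± 3.39 (SD, n = 7) of it in *Tet2/3* DKO, and the log2 difference of -0.13 (SE 0.0493) did not pass (exact permutation p = 0.0268, adjusted p = 0.0637). For mir-15b they were only 1.23% ± 0.157 of miR-15b-5p in WT and 1.32% ± 0.251 in *Tet2/3* DKO (log2 difference 0.08, SE 0.138, adjusted p = 0.666, exact permutation test). For mir-497a the log2 difference was 1.36 (SE 1.14, adjusted p = 0.394, exact permutation test). How reads were divided between the hairpin and the mature table is not given in the sources used here, so these shares describe the tables and not amounts of RNA.

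No ratio between 5p arms of the 3 loci passed. Between the 5p arms, the log2 difference was 0.21 for miR-15a-5p over miR-15b-5p (SE 0.119, adjusted p = 0.185), 0.24 for miR-15a-5p over miR-16-5p (SE 0.104, adjusted p = 0.114) and 0.02 for miR-15b-5p over miR-16-5p (SE 0.102, adjusted p = 0.874), all by the exact permutation test. For miR-15a-5p over miR-16-5p, 5 of 7 *Tet2/3* DKO mice were above and 1 was under every WT mouse, and without DKO replicate 6 the difference was 0.30 and passed (adjusted p = 0.0183). miR-195a-5p over miR-16-5p (0.26, SE 0.234, adjusted p = 0.410) and miR-497a-5p over miR-195a-5p (0.42, SE 0.226, adjusted p = 0.165) did not pass the same exact permutation test. Between hairpins, mir-15a over mir-15b (0.00, adjusted p = 0.984), mir-15a over mir-16-1 (0.10, adjusted p = 0.555), mir-15b over mir-16-2 (0.09, adjusted p = 0.355) and mir-497a over mir-195a (0.85, adjusted p = 0.476) did not pass either. A ratio that passed at a very small size was mir-16-1 over mir-16-2, at 102.2% to 102.8% in WT and 101.6% to 102.1% in *Tet2/3* DKO without overlap (log2 difference -0.01, SE 0.0017, exact permutation p = 0.000583, adjusted p = 0.00738), where the p is the smallest that these splits allow.

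**Figure D3:**
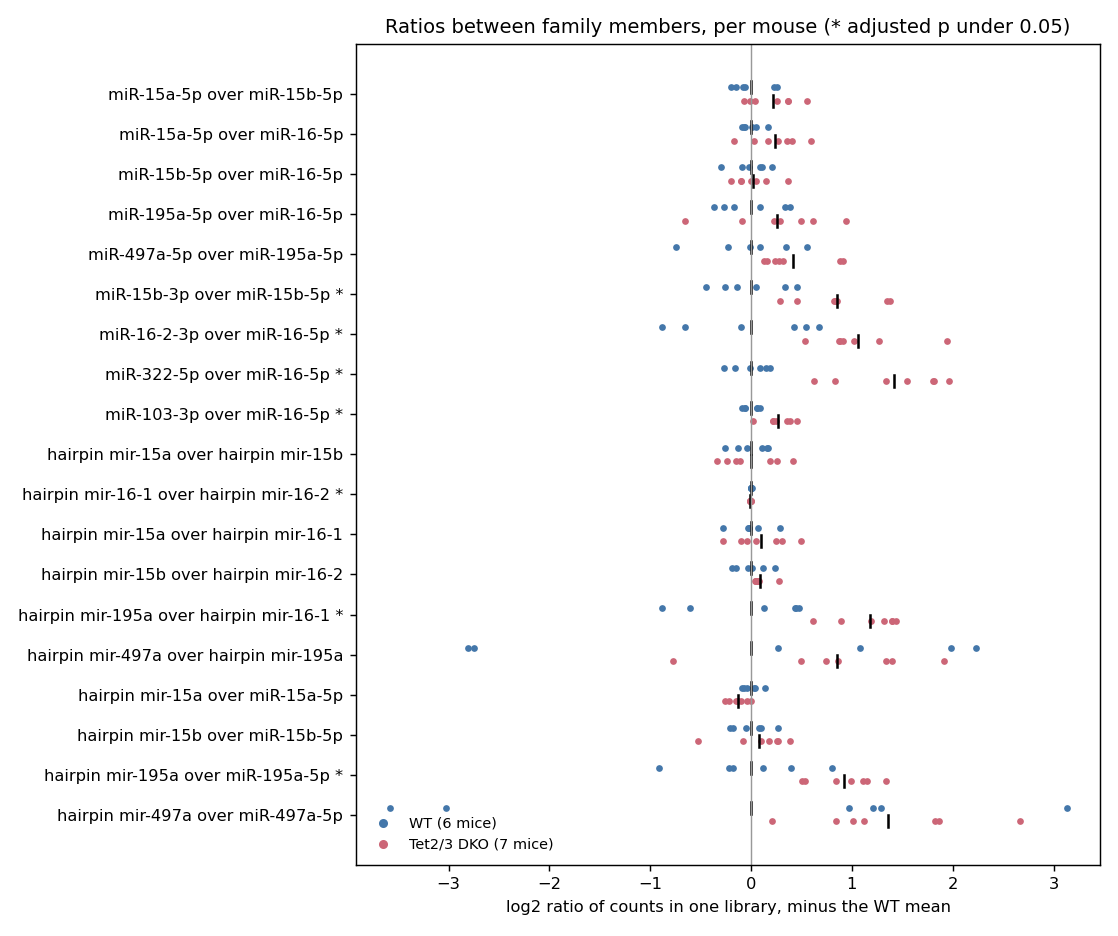
Log2 ratio of counts in each mouse minus the WT mean of that ratio, for the 19 ratios tested, with WT in blue, *Tet2/3* DKO in red and a bar at each mean. The 7 ratios with a star passed the exact permutation test at an adjusted p under 0.05, with miR-15b-3p over miR-15b-5p shifted by 0.85 and miR-16-2-3p over miR-16-5p by 1.06, whereas miR-15b-5p over miR-16-5p is shifted by 0.02.

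The seed of the family also occurs outside the 3 loci. The one other mature sequence with AGCAGCA at bases 2 to 8 was miR-322-5p, encoded on the X chromosome close to miR-503, whose seed ends in another base. miR-103-3p and miR-107-3p carry AGCAGCA shifted by 1 base, at positions 1 to 7, and are known for targets in metabolism. They are printed with bases 2 to 8 in capitals to show the shift.
miR-322-5p: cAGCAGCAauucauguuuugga
miR-503-5p: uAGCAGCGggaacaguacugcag
miR-103-3p: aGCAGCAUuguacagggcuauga
miR-107-3p: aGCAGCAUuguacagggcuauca

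miR-322-5p and miR-503-5p rose in *Tet2/3* DKO without overlap between the genotypes. miR-322-5p was at 646, 863 and 1071 CPM in WT and at 1338, 1908 and 2498 CPM in *Tet2/3* DKO (log2 fold change 1.17, SE 0.149, edgeR adjusted p = 1.25e-06). miR-503-5p was at 94.0, 120 and 141 CPM in WT and at 296, 390 and 493 CPM in *Tet2/3* DKO (log2 fold change 1.71, SE 0.149, edgeR adjusted p = 5.42e-09). The 3p arm of mir-322 was higher too (log2 fold change 1.59, SE 0.187, edgeR adjusted p = 4.64e-07), as were the hairpins mir-322 (0.87, adjusted p = 9.28e-05) and mir-503 (1.98, adjusted p = 1.29e-07). Relative to miR-16-5p, miR-322-5p was at 0.405%, 0.501% and 0.555% in WT and at 0.748%, 1.42% and 1.90% in *Tet2/3* DKO (log2 difference 1.42, SE 0.209, exact permutation p = 0.00117, adjusted p = 0.00738). In every mouse of both genotypes it stayed far under miR-16-5p.

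miR-103-3p was at 13107, 15091 and 16551 CPM in WT and at 13465, 14853 and 17339 CPM in *Tet2/3* DKO (log2 fold change 0.02, SE 0.0980, edgeR adjusted p = 0.892) that was positive with 3 of the 13 references and negative with the others. Its ratio to miR-16-5p was nevertheless higher, by 0.27 on the log2 scale (SE 0.0625, exact permutation p = 0.00291, adjusted p = 0.00923). miR-107-3p was at 841, 993 and 1241 CPM in WT and at 1086, 1182 and 1493 CPM in *Tet2/3* DKO (log2 fold change 0.29, SE 0.115, edgeR adjusted p = 0.0365) that passed with 4 of the 13 references and not with upper-quartile factors (0.12, adjusted p = 0.380).

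**Figure D4:**
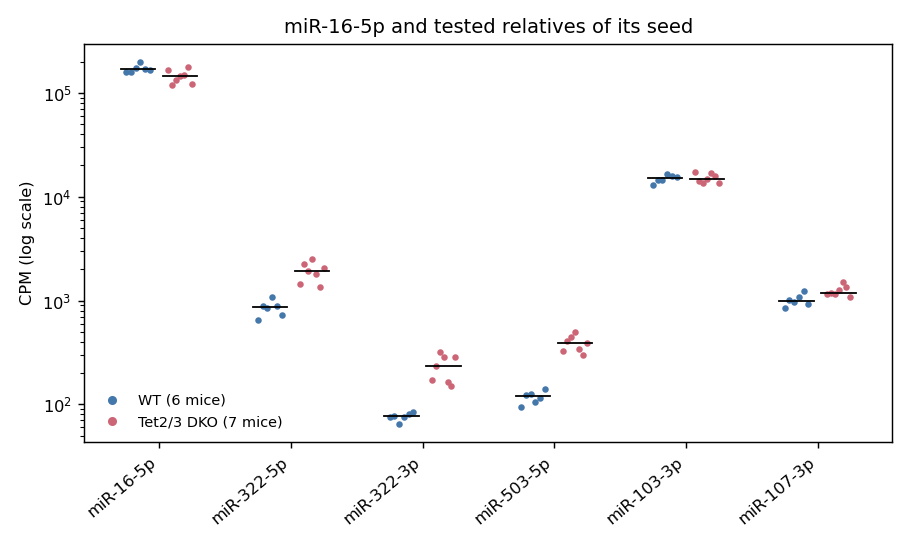
CPM on a log axis in each mouse for miR-16-5p and for the tested miRNAs with the same, a similar or a shifted seed, with WT in blue, *Tet2/3* DKO in red and a line at each median. miR-322-5p, miR-322-3p and miR-503-5p separate the genotypes without overlap, and remain far under miR-16-5p.

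Other miRNAs with published targets among cell cycle genes were counted at the level of hairpins. Of 16 listed, 10 were tested, 9 were lower and 1 was higher in *Tet2/3* DKO, with a median log2 fold change of -0.69 beside 0.02 over all hairpins. The list holds pairs of hairpins with a mature arm in common and similar counts (mir-26a-1 and mir-26a-2, mir-24-1 and mir-24-2, mir-29b-1 and mir-29b-2), so its counts are not of separate miRNAs. Of the mature arms of the list, 15 were tested, 10 were lower and 1 was higher. Over all tested, 27.1% of hairpins and 27.4% of mature sequences were lower, and 32.6% and 28.2% were higher. The lowest were mir-29b-2 (log2 fold change -1.05, SE 0.204, edgeR adjusted p = 0.000250) and mir-29b-1 (-1.04, SE 0.199, adjusted p = 0.000216), of a family known to target CDK6 and collagen mRNAs. The highest were mir-34a, which p53 induces (2.10, SE 0.336, edgeR adjusted p = 0.000133), and mir-29c (-0.52, SE 0.181, adjusted p = 0.0192).

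The mature miRNAs whose levels ran most closely with miR-16-5p, miR-15b-5p, miR-15a-5p and miR-195a-5p were found by the SD of the log2 ratio of counts over the 13 libraries, a description in which all values share library depth. For miR-16-5p they were let-7d-5p (SD 0.106), let-7f-5p (0.155) and miR-23a-3p (0.162), against a median SD of 0.631 over the 394 mature sequences that are no members, and miR-15b-5p had 0.178 and miR-15a-5p 0.227. For miR-15b-5p, miR-16-5p was closer than any sequence outside the family, followed by miR-194-5p (0.202), miR-191-3p (0.208) and miR-23a-3p (0.226). For miR-15a-5p the nearest were miR-30b-5p (0.132), miR-103-3p (0.140) and miR-194-5p (0.156). For miR-195a-5p they were miR-669c-5p (0.310), miR-466h-5p (0.325) and miR-1187 (0.390).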

How the data were processed

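Small RNA was sequenced from sorted thymic iNKT cells of 6 WT and 7 *Tet2/3* DKO mice, grouped by the labels. The authors processed reads with nf-core/smrnaseq (2.2.4), default parameters, and deposited whole-number counts per hairpin and per mature sequence, without normalization (labels name mm10). The aligner, the miRNA database release and the handling of reads that match several sequences are not given in the sources used here. 0 columns were left unused.

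From the deposited counts, whole tables were fitted with edgeR 4.0.16 (R 4.3.3): filterByExpr (minimum count 10, total 15), TMM, robust quasi-likelihood test, genotype only, Benjamini-Hochberg adjustment per table. Ratios used an exact permutation test (scipy 1.17.1, Python 3.11.15). Alternatives were other scalings and filters, identical rows once, replicate block, DESeq2 1.42.0, limma-voom (limma 3.58.1), other added counts and leaving out each mouse. The choice of the TMM reference, and leaving out mice with it held, were added after seeing the data. Code was tested on simulated data.

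Named miRNAs are all members, seed relatives, shifted-seed relatives, the marker miRNAs, those of the cell cycle list (values for the 2 lowest and 2 highest hairpins, other names only as pairs with similar counts) and the 3 closest non-members of miR-16-5p, miR-15a-5p, miR-15b-5p and miR-195a-5p. Members and lists were chosen with earlier results of these data known. No replicate pair agreed within sampling noise (chi-square per degree of freedom at least 15.0 for hairpins and 20.2 for mature sequences). Whether reads carry molecular identifiers is not stated in the study's methods, and floors cover counting error only. Depth stands in the report. Sequences come from RefSeq (GRCm38.p6), with 10 of 10 mature members and 1078 of 1297 rows matched, and loci from GENCODE M21. Figures were drawn with matplotlib 3.10.9.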

Additional observations from a re-analysis of the deposited data

Results flagged for a closer look

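Of 78 sets of values checked, each a member level, a ratio or a share in the mice of 1 genotype, 2 held a mouse far from the others, where chance gives about 1 in 20, or 3.9. The mir-15a hairpin was highest in DKO replicate 2, at 12.29 as log2(CPM + 0.5), with the next mouse at 12.06. Without that mouse the fall of mir-15a passed the threshold (log2 fold change -0.23, edgeR adjusted p = 0.0301). The log2 ratio of the mir-15b hairpin over mir-16-2 was highest in DKO replicate 1, at -5.06, with the next mouse at -5.26.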

How the results depend on the processing

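The members' calls near the threshold depended on scaling, whereas mir-195a kept its call under every alternative and the 7 called ratios under every one except the replicate block. Hairpins lower in *Tet2/3* DKO numbered 95 and became 56 with library size only, 156 with no filter and 160 with DESeq2. Lower member hairpins numbered 2, and 4 with RLE, 4 with upper-quartile and 3 with DESeq2 or limma-voom. They numbered 1 with identical rows once, and 0 with library size only, with no filter and with the TMM reference of smallest offset. Higher member hairpins numbered 1, and 2 with limma-voom or no filter. Lower mature members numbered 0, and 2 with upper-quartile, limma-voom or the TMM reference of largest offset, and 1 with at least 10 counts in every library. Higher mature members numbered 2, and 1 with DESeq2, limma-voom, no filter, at least 10 counts in every library or the TMM reference of smallest offset, and 0 with upper-quartile or the TMM reference of largest offset. Leaving out 1 mouse, lower and higher members ranged from 0 to 3 and 1 to 1 (hairpins) and from 0 to 2 and 0 to 2 (mature).

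Signs turned for mir-15a (0.15 with library size only, 0.0011 with no filter), mir-15b (0.15 and 0.0066), mir-16-1 (0.054 with library size only), mir-16-2 (0.061), miR-15a-5p (0.23 with library size only, 0.064 with no filter, 0.012 with DESeq2, 0.0017 with identical rows once), miR-195a-5p (-0.089 with upper-quartile, -0.0051 with the TMM reference of largest offset), miR-103-3p (-0.15 and -0.085) and mir-497a over mir-195a (-0.16 with 5 added to each count). Ranges without 1 mouse that crossed 0 were -0.12 to 0.0018 (miR-15a-5p), -0.11 to 0.19 (miR-195a-5p), -0.091 to 0.047 (miR-103-3p), -0.036 to 0.064 (miR-15b-5p over miR-16-5p) and -0.066 to 0.059 (hairpin mir-15a over mir-15b), and calls were gained within 0.18 to 0.30 (miR-15a-5p over miR-16-5p) and -0.15 to -0.10 (hairpin mir-15a over miR-15a-5p). The offset between genotypes of the TMM factors was 0.24 to 0.34 (log2, mature) and 0.27 to 0.37 (hairpins) over the 13 references. The cause of the other moves was not tested.

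The labels do not say whether replicate numbers pair the mice. Same-numbered deviations correlated at -0.0504 to 0.342 (hairpins) and 0.0116 to 0.335 (mature). In both, 2 of 6 mice correlated best with their own number, replicates 5 and 6. With the replicate block, lower mature members numbered 2 (miR-16-5p at -0.30) and higher ones 1, miR-103-3p was -0.042, and the ratios were 0.92 (miR-15b-3p over 5p), 0.92 (miR-16-2-3p), 1.35 (miR-322-5p), 0.26 (miR-103-3p), 1.13 and 0.91 (mir-195a over mir-16-1 and over miR-195a-5p), -0.0080 (mir-16-1 over mir-16-2), -0.035 (miR-15b-5p over miR-16-5p) and -0.039 (mir-15a over mir-15b). None of these ratios passed, where 6 pairs allow no p under 0.0313 and the adjusted value was 0.132 at the least.

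Depth limits the minor arms and the chromosome 11 locus. miR-15b-3p had 40 to 474 counts per library, miR-16-2-3p 6 to 61, and members of the chromosome 11 locus at most 206 (miR-497a-5p).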

Other observations

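miRNAs of red cells and myeloid cells were lower in *Tet2/3* DKO, and those of epithelium and endothelium passed the threshold for some mature arms but for no tested hairpin. The red cell miRNAs mir-451a, mir-144 and mir-486a, 2 of 3 tested and both lower, summed to 463 to 1239 CPM in WT and 93.2 to 344 CPM in *Tet2/3* DKO. The myeloid mir-223 was lower as well, at 20.1 to 310 CPM in WT and 0 to 19.2 CPM in *Tet2/3* DKO. Their mature arms were lower too, all 3 tested of the red cell and miR-223-3p of the myeloid list. Over all tested, 27.1% of hairpins and 27.4% of mature sequences were lower. The hepatocyte mir-122 was too rare to test as a hairpin, and miR-122-5p was lower (log2 fold change -3.87, edgeR adjusted p = 0.00625). Of the epithelial list, the 4 hairpins tested did not pass, whereas 4 of 6 mature arms tested were lower, miR-200a-3p (-1.31, edgeR adjusted p = 7.05e-05), miR-200b-5p (-1.85, adjusted p = 0.000488), miR-200c-3p (-0.89, adjusted p = 4.11e-05) and miR-141-3p (-0.65, adjusted p = 0.00236). The endothelial hairpin mir-126a did not pass (-0.13, edgeR adjusted p = 0.573), and of its arms miR-126a-3p was higher (0.69, SE 0.179, edgeR adjusted p = 0.00249) and miR-126a-5p did not pass (0.19, adjusted p = 0.364). What these cells add to the levels of the family was not tested.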
